A study of Mus musculus with 12 samples.

Results

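The 42 genes described here are interferon-induced effector genes, the antiviral and immune proteins whose transcription rises when a cell senses interferon. They were chosen by gene symbol from a fixed list, and the receptors, STAT and IRF factors that drive them were left out of it. The list was chosen with earlier results of these data known. All 42 were found among the 41128 genes of the deposited tables, and 40 of them were among the 15347 genes that passed the filter on low counts and were tested. The other 2, Ifi27 and Oas1g, were too low for a test.

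The cells were mouse haemogenic endothelium, the endothelium from which blood cells emerge, made from Ainv18-derived embryonic stem cells that carry a doxycycline-inducible Sox7 gene (iSox7). FLK1+ mesoderm was sorted from embryoid bodies on day 3.5 and kept for 48 h in a liquid blast culture that holds D4T-conditioned medium, VEGF and IL6. The 3 Dox groups then received 1 µg/ml doxycycline for 6, 12 or 24 h, and the 3 untreated groups were kept for the same hours without it; every group had 2 RNA-seq libraries, and all 6 groups carry the transgene. No library of the parental line with doxycycline was analysed here, so the effects of SOX7 and of doxycycline itself cannot be told apart.

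Interferons bind surface receptors whose Janus kinases phosphorylate STAT proteins. With IRF9 these form the factor ISGF3, which binds interferon-stimulated response elements (ISREs) in the promoters of its target genes. The induced proteins sense foreign nucleic acids, degrade viral RNA, block translation and trap virus particles, and some of them feed back on the receptor. Low, interferon-dependent signalling in developing haemogenic tissue is also known, and many of these genes have basal expression in blood cells.

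The induced gene matched the labels. Sox7, the SOXF transcription factor under test, had 326 and 314 CPM at 6 h, 379 and 376 CPM at 12 h and 337 and 331 CPM at 24 h in Dox cells, where CPM is a count scaled to one common library size. In untreated cells Sox7 had 77.9 and 81.7 CPM at 6 h, 55.6 and 68.8 CPM at 12 h and 52.5 and 52.1 CPM at 24 h. One row holds the gene, so transgene and endogenous transcripts are not separated. Libraries held 13485804 to 35250074 counts, and each group had 1 deeper and 1 shallower library. The endothelial marker list summed to 2397 to 3225 CPM over the 12 libraries and the pan-haematopoietic list to 126 to 283 CPM. The mural and mesenchymal list summed to more, 6827 to 9689 CPM, and the erythroid list to 1274 to 2771 CPM. Such sums do not give the shares of cell types. The labels do not say that the 2 libraries of a group come from separate cultures, so the p-values measure the spread between these libraries, which may be technical. Differences were tested with edgeR's quasi-likelihood test over all 12 libraries and called at a Benjamini-Hochberg adjusted p under 0.05 over all 15347 genes.

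Interferon-induced genes were lower in Dox cells, and the difference grew with time. At 24 h 37 of the 40 tested genes were called lower and 0 higher, where 6.52% of all genes tested were called lower and 4.50% higher. The median log2 fold change of the 40 genes was -1.55, beside a median of -0.01 over all genes, and 29 of the called genes were at least 2-fold lower. Because the list was chosen with earlier results of these data known, the values over all genes beside it are a description only. At 12 h 8 genes were called lower and 0 higher (3.51% and 3.26% of all genes), with a median of -0.29. At 6 h edgeR called 0 of the 40 genes in either direction, as did DESeq2 and limma-trend; 0.821% of all genes were called higher and 0.717% lower, 3 of the 40 had an unadjusted p under 0.05, and the median was 0.01. In bulk RNA fewer cells that express these genes and less RNA per cell cannot be told apart.

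The filter and the depth touch these counts. Oasl1, Oas1a, Oas2, Oas3, Zbp1, Mx1 and Sp100 passed the filter only through the 2 untreated 24 h libraries, where they were high, so a lower Dox level at 24 h follows in part from how they were kept. Of the other 33 genes, 31 were called lower at 24 h, with a median log2 fold change of -1.35, and 8 at 12 h. Within the shallower and the deeper library of each group the 24 h median was -1.31 and -1.33 on the log2(CPM + 0.5) scale. Without Dox replicate 1 the 12 h count was 3, and Ifit3, Usp18, Trim30a, Gbp2 and Gbp3 were no longer called. Without untreated replicate 2 it was 4, and Ifit2, Trim30a, Gbp2 and Gbp3 were no longer called. Limma-trend on the deposited RPKM called 3 genes at 12 h, and Ifit1 and Rsad2 are the 2 called there under every alternative tried. At 24 h the count was 33 without Dox replicate 1 (Isg20, Oas1a, Dhx58 and Ifi35 lost) and 33 without Dox replicate 2 (Oasl1, Oas2, Dhx58 and Sp100 lost). It was 35 without untreated replicate 1 (Oasl1 and Dhx58 lost) and 31 without untreated replicate 2 (Isg20, Oasl1, Oas2, Dhx58, Ifi35 and Sp100 lost).

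**Figure D1:**
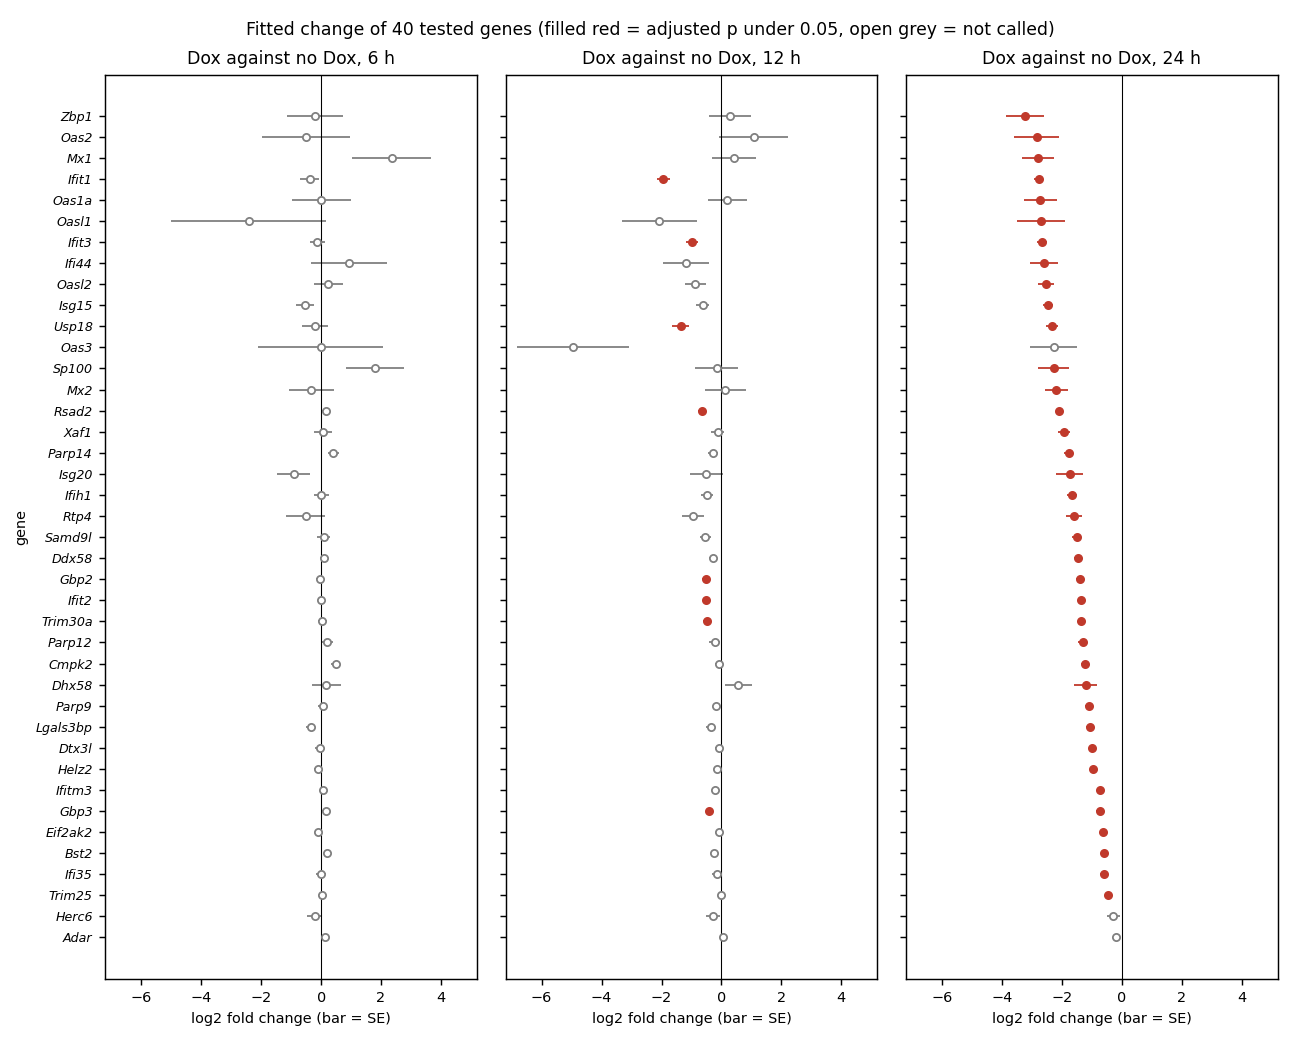
Fitted log2 fold change of Dox against untreated cells (x axis, bar = SE) for the 40 tested genes (y axis) at 6, 12 and 24 h; filled red points passed the test and open grey points did not. No point is filled at 6 h, 8 are filled left of 0 at 12 h and 37 at 24 h.

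Many of these genes carry the ISRE core, GAAANNGAAA, close to the start of transcription. The promoter windows of RefSeq (GRCm38.p6), each from 250 bases before to 50 bases after a start, could be matched by symbol for 32 of the 42 genes. On either strand 15 of the 32 held the core (46.9%), against 3.99% of the 27025 genes with a window. They were Bst2, Ddx58, Eif2ak2, Gbp2, Gbp3, Ifih1, Ifit1, Ifit3, Ifitm3, Isg15, Oas1a, Oas1g, Oas3, Rsad2 and Trim30a. The upstream stretches below are shown because they belong to genes with large differences at 24 h, or to Oas1a and Oas1g, whose cores lie alike. Each is written 5′ to 3′ on the strand of the gene and stops before the start site, and capitals mark the ISRE core or its reverse complement. They lie at chr19:34640755-34640843 on the forward strand (Ifit1), chr19:34583279-34583528 on the forward strand (Ifit3), chr4:156200819-156201068 on the reverse strand (Isg15), chr12:26456453-26456702 on the reverse strand (Rsad2), chr5:120907526-120907575 on the reverse strand (Oas1a) and chr5:120887614-120887661 on the reverse strand (Oas1g).
Ifit1: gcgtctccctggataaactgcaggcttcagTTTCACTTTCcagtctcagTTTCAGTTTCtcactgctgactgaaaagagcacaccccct
Ifit3: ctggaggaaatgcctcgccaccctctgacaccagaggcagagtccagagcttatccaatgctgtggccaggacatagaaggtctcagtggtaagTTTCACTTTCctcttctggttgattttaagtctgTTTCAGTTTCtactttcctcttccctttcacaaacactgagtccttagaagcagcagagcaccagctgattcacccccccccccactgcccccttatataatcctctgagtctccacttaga
Isg15: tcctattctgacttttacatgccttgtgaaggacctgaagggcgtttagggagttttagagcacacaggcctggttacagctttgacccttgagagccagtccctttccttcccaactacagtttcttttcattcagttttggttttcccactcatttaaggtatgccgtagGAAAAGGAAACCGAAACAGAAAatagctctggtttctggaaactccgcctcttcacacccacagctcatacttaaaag
Rsad2: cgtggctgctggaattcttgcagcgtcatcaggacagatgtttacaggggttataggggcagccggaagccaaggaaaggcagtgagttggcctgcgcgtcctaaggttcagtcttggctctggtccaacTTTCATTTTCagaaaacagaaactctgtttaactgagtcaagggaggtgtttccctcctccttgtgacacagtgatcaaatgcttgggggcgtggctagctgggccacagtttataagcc
Oas1a: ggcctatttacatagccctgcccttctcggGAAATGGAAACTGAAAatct
Oas1g: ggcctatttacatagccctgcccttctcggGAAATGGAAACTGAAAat

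Ifit1 and Ifit3 each held 2 cores on the opposite strand, with their first bases at -104 and -85 of the start for Ifit1 and at -156 and -122 for Ifit3. Isg15 held 3 overlapping cores in 1 run, starting at -78, -72 and -66. Oas1a and Oas1g shared the same pair of overlapping cores, which began at -20 and -14 in Oas1a and at -18 and -12 in Oas1g. Of the 14 tested genes with the core 13 were called lower at 24 h, and the median log2 fold change of the 14 was -1.57. Of the 17 tested genes with a window and no core 15 were called lower, with a median of -1.30. Over all genes tested 6.52% were called lower. Oas1a and Oas3 with the core, and Oasl1 and Sp100 without it, passed the filter only through the untreated 24 h libraries. Their lower Dox level follows in part from that, and whether the 2 medians differ was not tested. The gamma-activated site TTCNNNGAA occurred in 8 of the 32 genes (25.0%; 9.55% of all genes), and 2 of the 25 core matches overlapped one. RUNX-type letters (TGTGGT or TGCGGT) occurred in 9 genes (28.1%, beside 25.0% of all genes), and the SOX-type letters AACAAT in 4 (12.5%, beside 12.2%). These letters describe the windows and do not show that a factor binds there.

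The Ifit genes, whose products bind foreign RNA through tetratricopeptide repeats, were led by Ifit1 and Ifit3, which had larger 24 h differences than Ifit2. All 3 were called lower at 12 h and at 24 h, and 0 of 3 at 6 h. Ifit1 had 1.25 and 0.808 CPM at 6 h, 1.40 and 1.15 CPM at 12 h and 5.91 and 5.38 CPM at 24 h in Dox cells. In untreated cells Ifit1 had 1.30 and 1.19 CPM at 6 h, 6.05 and 4.54 CPM at 12 h and 35.4 and 42.1 CPM at 24 h. Ifit1, which blocks translation of RNA lacking the host cap structure, was low in all Dox libraries and at its highest in the untreated 24 h libraries, with no overlap at 12 or 24 h. The log2 fold change of Ifit1 was -1.95 ± 0.22 (SE; edgeR adjusted p = 3.51e-07) at 12 h and -2.77 ± 0.14 (SE; edgeR adjusted p = 1.44e-14) at 24 h, or 6.82-fold lower at 24 h.

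Ifit3 had 1.80 and 1.40 CPM at 6 h, 1.76 and 1.80 CPM at 12 h and 3.38 and 3.16 CPM at 24 h in Dox cells. In untreated cells Ifit3 had 1.72 and 1.63 CPM at 6 h, 3.56 and 3.48 CPM at 12 h and 20.6 and 21.4 CPM at 24 h. Ifit3, a partner protein of the other Ifit proteins, was low in all Dox libraries, with no overlap at 12 or 24 h, and its untreated 24 h libraries stood far above all others. For Ifit3 the log2 fold change was -0.98 ± 0.21 (SE; edgeR adjusted p = 0.00265) at 12 h and -2.67 ± 0.16 (SE; edgeR adjusted p = 2.57e-13) at 24 h. Ifit2 had 18.99 and 15.3 CPM at 6 h, 18.3 and 16.04 CPM at 12 h and 26.01 and 22.3 CPM at 24 h in Dox cells. In untreated cells Ifit2 had 17.1 and 16.3 CPM at 6 h, 23.7 and 25.4 CPM at 12 h and 57.3 and 66.5 CPM at 24 h. Ifit2 had its groups apart at 12 and 24 h, with the untreated 24 h pair far above the other libraries. It fell by 0.51 ± 0.11 (SE; edgeR adjusted p = 0.0031) on the log2 scale at 12 h and by 1.35 ± 0.10 (SE; edgeR adjusted p = 1.92e-11) at 24 h.

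**Figure D2:**
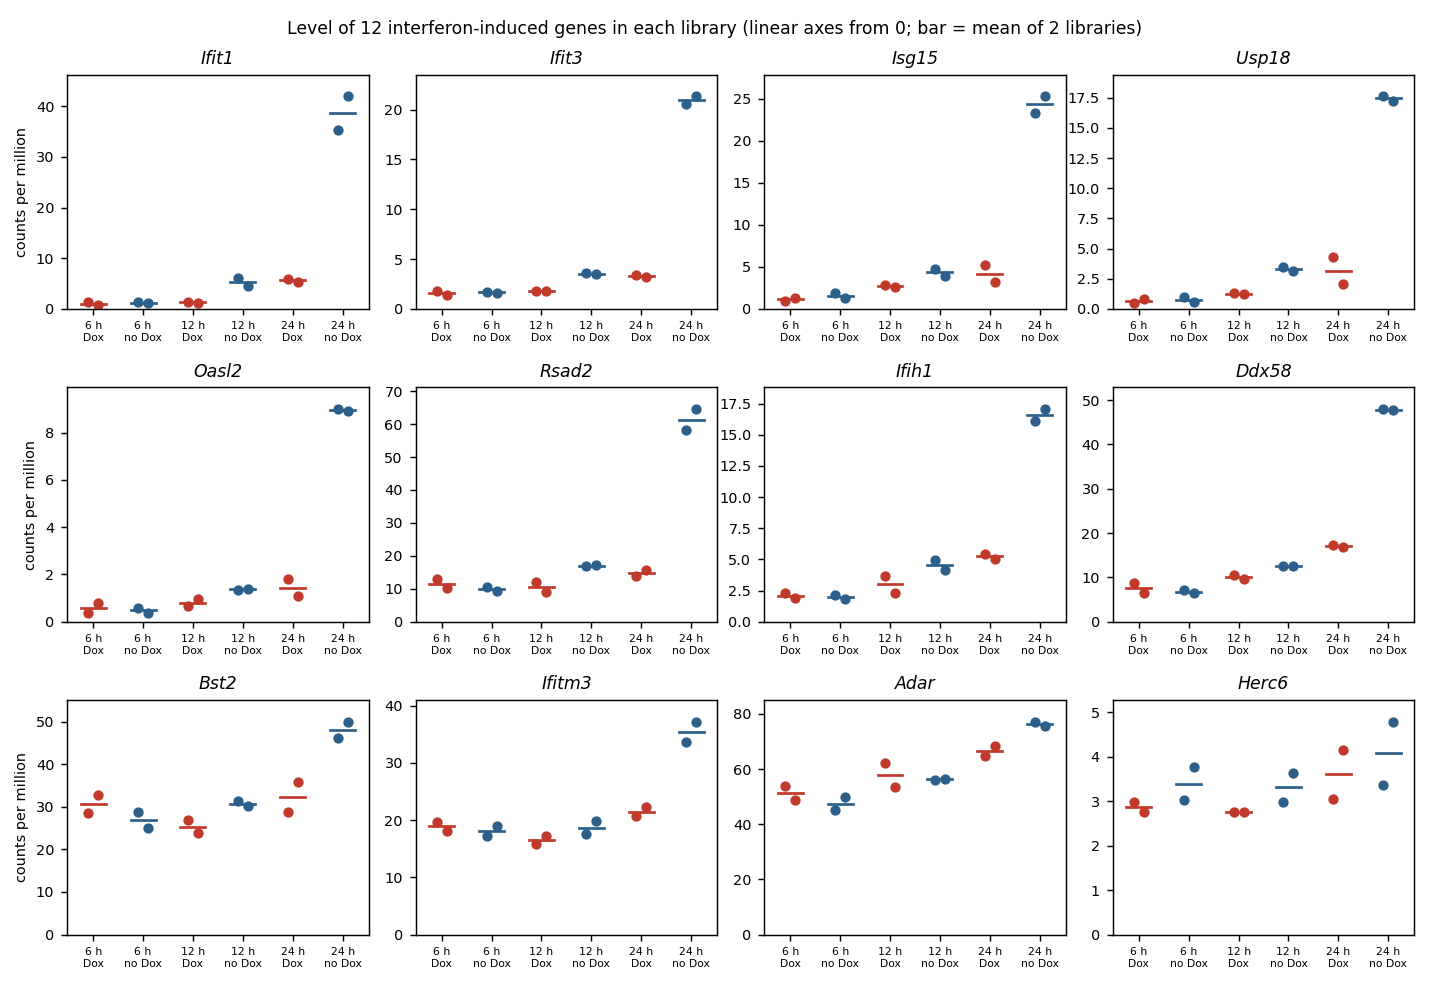
CPM (y axis, linear from 0) of 12 interferon-induced genes in each of the 12 libraries (points), by hour with Dox (red) left of no Dox (blue) and a bar at the mean of 2 libraries. The untreated 24 h libraries stand highest in every panel by the mean, and for Herc6 the 24 h groups overlap.

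The ISG15 system attaches a ubiquitin-like protein to other proteins and removes it again. Of its 4 genes 3 were called lower at 24 h and 1, Usp18, at 12 h. Isg15 had 0.970 and 1.25 CPM at 6 h, 2.79 and 2.63 CPM at 12 h and 5.16 and 3.16 CPM at 24 h in Dox cells. In untreated cells Isg15 had 1.90 and 1.26 CPM at 6 h, 4.77 and 3.91 CPM at 12 h and 23.3 and 25.3 CPM at 24 h. Isg15, the modifier itself, was lower in Dox cells in every library pair at 24 h, and at 12 h the groups stood apart without passing the test. The log2 fold change of Isg15 was -0.63 ± 0.21 (SE; edgeR adjusted p = 0.0767) at 12 h and -2.47 ± 0.17 (SE; edgeR adjusted p = 5.56e-12) at 24 h, the second being 5.55-fold lower.

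Usp18 had 0.485 and 0.845 CPM at 6 h, 1.29 and 1.22 CPM at 12 h and 4.27 and 2.08 CPM at 24 h in Dox cells. In untreated cells Usp18 had 0.948 and 0.593 CPM at 6 h, 3.49 and 3.12 CPM at 12 h and 17.7 and 17.2 CPM at 24 h. Usp18, the protease that removes ISG15 and also restrains the type I interferon receptor, was under 5 CPM in all Dox libraries and above 17 CPM in the untreated 24 h libraries. For Usp18 the log2 fold change was -1.36 ± 0.28 (SE; edgeR adjusted p = 0.00198) at 12 h and -2.34 ± 0.20 (SE; edgeR adjusted p = 5.41e-10) at 24 h. Trim25 had 132 and 128 CPM at 6 h, 135 and 129 CPM at 12 h and 133 and 122 CPM at 24 h in Dox cells. In untreated cells Trim25 had 122 and 135 CPM at 6 h, 130.2 and 135 CPM at 12 h and 171 and 178 CPM at 24 h. Trim25, a ubiquitin ligase that activates RIG-I, held nearly the same level in 10 libraries and stood higher in the 2 untreated 24 h libraries. It had the smallest difference of the 37 called genes at 24 h, -0.45 ± 0.06 (SE; edgeR adjusted p = 1.23e-06).

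Herc6 had 2.98 and 2.76 CPM at 6 h, 2.77 and 2.76 CPM at 12 h and 3.05 and 4.16 CPM at 24 h in Dox cells. In untreated cells Herc6 had 3.02 and 3.78 CPM at 6 h, 2.99 and 3.63 CPM at 12 h and 3.36 and 4.79 CPM at 24 h. Herc6, the main ISG15 ligase of mouse, overlapped between the groups at 24 h and was not called, with a log2 fold change of -0.28 ± 0.22 (SE; edgeR adjusted p = 0.546). It stayed between 2.75 and 4.79 CPM in all libraries.

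Of the effectors that act on RNA and nucleotides, all 3 were called lower at 24 h. Rsad2 had 12.9 and 10.2 CPM at 6 h, 12.01 and 8.92 CPM at 12 h and 13.7 and 15.6 CPM at 24 h in Dox cells. In untreated cells Rsad2 had 10.6 and 9.19 CPM at 6 h, 16.9 and 17.1 CPM at 12 h and 58.1 and 64.7 CPM at 24 h. Rsad2 (viperin), which makes a chain-terminating nucleotide, stayed between 8.92 and 15.6 CPM in Dox cells, and its untreated libraries were higher at 12 h and again at 24 h, with no overlap between conditions at either hour. Rsad2 had a log2 fold change of -0.66 ± 0.13 (SE; edgeR adjusted p = 0.00105) at 12 h and -2.09 ± 0.11 (SE; edgeR adjusted p = 3.75e-14) at 24 h, the second 4.25-fold lower.

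Cmpk2 had 8.66 and 7.35 CPM at 6 h, 8.19 and 9.18 CPM at 12 h and 8.11 and 10.7 CPM at 24 h in Dox cells. In untreated cells Cmpk2 had 5.72 and 5.48 CPM at 6 h, 9.76 and 8.60 CPM at 12 h and 21.4 and 21.6 CPM at 24 h. Cmpk2, a mitochondrial nucleotide kinase gene that lies 12752 bases from Rsad2 on the other strand, was higher in both Dox libraries at 6 h, although this did not pass the test (0.49 ± 0.16 SE, edgeR adjusted p = 0.166). At 24 h it was lower, with a log2 fold change of -1.23 ± 0.13 (SE; edgeR adjusted p = 4.67e-08). Isg20, an RNA exonuclease, had 16 and 13 counts in Dox cells, against 32 and 74 counts in untreated cells at 24 h. Those counts come from libraries of unlike depth, and scaled they gave 0.525 and 0.933 CPM in Dox cells, against 2.29 and 2.25 CPM in untreated cells. Isg20 had a log2 fold change of -1.74 ± 0.45 (SE; edgeR adjusted p = 0.00822).

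The 2′-5′ oligoadenylate synthetase (OAS) family makes the messenger that activates RNase L, and Oasl1 and Oasl2 are its OAS-like members. Of 6 genes 5 were tested, and 4 were called lower at 24 h and 0 at 6 or 12 h. Of these 5, all but Oasl2 passed the filter only through the untreated 24 h libraries. Their lower Dox level at 24 h follows in part from that. Oasl2 had 0.346 and 0.771 CPM at 6 h, 0.643 and 0.962 CPM at 12 h and 1.81 and 1.08 CPM at 24 h in Dox cells. In untreated cells Oasl2 had 0.597 and 0.371 CPM at 6 h, 1.35 and 1.39 CPM at 12 h and 9.01 and 8.89 CPM at 24 h. Oasl2 was the best counted of the family, and its untreated 24 h libraries stood far above the rest. The log2 fold change of Oasl2 was -2.54 ± 0.26 (SE; edgeR adjusted p = 1.5e-08) at 24 h, 5.80-fold lower.

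The remaining OAS genes were close to the limit of detection in most libraries. Oas3 had 6 and 0 counts in Dox cells, against 9 and 22 counts in untreated cells at 24 h. In CPM these were 0.197 and 0 CPM in Dox cells, against 0.643 and 0.668 CPM in untreated cells. Oas3 was at 0 to 8 counts in every other library and at 0 in both Dox 12 h libraries, and its log2 fold change of -2.28 ± 0.79 (SE; edgeR adjusted p = 0.0632) at 24 h did not pass the test. Oas1a had 5 and 5 counts in Dox cells at 24 h, against 22 and 50 counts in untreated cells. Oas1g, too low for a test, had 1 and 0 counts in Dox cells, against 6 and 14 counts in untreated cells at 24 h. Oas2 had 5 and 0 counts in Dox cells, against 11 and 28 counts in untreated cells, and Oasl1 likewise had 5 and 0 counts, against 11 and 24 counts. These 5 genes reached their highest CPM in the untreated 24 h libraries. A count of 0 over a group of 2 libraries allows up to 3 counts, and such limits cover counting error only. Oasl1 was at 0 in both Dox 6 h libraries, so no fold is given for it there, nor for Oas3 at 12 h. With these at their limits the 40-gene medians were 0.01 at 6 h and -0.29 at 12 h.

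Among the 6 genes for sensors of nucleic acids, 5 were called lower at 24 h and 0 at 6 or 12 h. Of these 5, Zbp1 passed the filter only through the untreated 24 h libraries. Ddx58 had 8.73 and 6.47 CPM at 6 h, 10.5 and 9.62 CPM at 12 h and 17.4 and 16.9 CPM at 24 h in Dox cells. In untreated cells Ddx58 had 7.23 and 6.37 CPM at 6 h, 12.5 and 12.5 CPM at 12 h and 48.04 and 47.7 CPM at 24 h. Ddx58 (RIG-I), the sensor of RNA with a 5′ triphosphate, rose over the hours under both conditions and reached a much higher level without Dox. Its log2 fold change at 24 h was -1.48 ± 0.10 (SE; edgeR adjusted p = 8.87e-12). Ifih1 had 2.29 and 1.91 CPM at 6 h, 3.69 and 2.31 CPM at 12 h and 5.45 and 5.02 CPM at 24 h in Dox cells. In untreated cells Ifih1 had 2.14 and 1.85 CPM at 6 h, 4.91 and 4.15 CPM at 12 h and 16.1 and 17.1 CPM at 24 h. Ifih1 (MDA5), the sensor of long double-stranded RNA, showed the same order of groups at 24 h. Ifih1 had a log2 fold change of -1.65 ± 0.17 (SE; edgeR adjusted p = 1.16e-08) at 24 h.

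Adar had 53.8 and 48.7 CPM at 6 h, 62.3 and 53.4 CPM at 12 h and 64.8 and 68.4 CPM at 24 h in Dox cells. In untreated cells Adar had 45.1 and 49.7 CPM at 6 h, 55.98 and 56.5 CPM at 12 h and 77.2 and 75.6 CPM at 24 h. Adar, which edits double-stranded RNA and so limits sensing of the cell's own RNA, rose at both steps in untreated cells, and its Dox libraries were also highest at 24 h. The 24 h groups of Adar did not overlap, but the difference was small and was not called (-0.20 ± 0.07 SE, edgeR adjusted p = 0.0829). Eif2ak2 (PKR), which halts translation on double-stranded RNA, had 31.1 and 32.7 CPM in Dox cells, against 49.3 and 49.6 CPM in untreated cells at 24 h, which is a log2 fold change of -0.64 ± 0.08 (SE; edgeR adjusted p = 4.41e-07). Dhx58 (LGP2), a helicase that tunes the other sensors, had 1.05 and 0.790 CPM in Dox cells, against 1.72 and 2.55 CPM in untreated cells at 24 h, and Zbp1, the sensor of Z-form nucleic acids, had 0.131 and 0.144 CPM in Dox cells, against 1.501 and 1.21 CPM in untreated cells. Both were low throughout, and their log2 fold changes were -1.21 ± 0.39 (SE; edgeR adjusted p = 0.0409) for Dhx58 and -3.24 ± 0.64 (SE; edgeR adjusted p = 0.00052) for Zbp1. The Zbp1 difference follows in part from how the filter kept that gene.

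All 4 GTPase genes were called lower at 24 h, and the guanylate-binding proteins Gbp2 and Gbp3, which attack vacuoles of intracellular pathogens, also at 12 h. Of the 4, Mx1 passed the filter only through the untreated 24 h libraries, so its lower Dox level there follows in part from that. Gbp2 had 12.7 and 12.6 CPM at 6 h, 8.52 and 12.1 CPM at 12 h and 10.5 and 10.4 CPM at 24 h in Dox cells. In untreated cells Gbp2 had 12.9 and 13.5 CPM at 6 h, 12.8 and 14.96 CPM at 12 h and 28.7 and 26.9 CPM at 24 h. Gbp2 dipped in 1 Dox library at 12 h, and its 24 h groups were well apart. For Gbp2 the log2 fold change was -0.50 ± 0.13 (SE; edgeR adjusted p = 0.0182) at 12 h and -1.40 ± 0.13 (SE; edgeR adjusted p = 1.23e-09) at 24 h. Gbp3 had 16.4 and 15.2 CPM at 6 h, 9.61 and 11.5 CPM at 12 h and 13.3 and 13.9 CPM at 24 h in Dox cells. In untreated cells Gbp3 had 14.6 and 13.3 CPM at 6 h, 12.96 and 14.2 CPM at 12 h and 21.7 and 23.2 CPM at 24 h. Within Dox cells Gbp3 was lower at 12 h than at 6 h, and its groups did not overlap at 12 or 24 h. The Dox difference of Gbp3 was -0.40 ± 0.12 (SE; edgeR adjusted p = 0.0374) at 12 h and -0.73 ± 0.11 (SE; edgeR adjusted p = 1.67e-05) at 24 h. Without Dox 12 h replicate 1 the 12 h values were -0.21 for Gbp2 and -0.24 for Gbp3. Mx1, a dynamin-like GTPase that blocks influenza virus, had 0.230 and 0.215 CPM in Dox cells, against 1.43 and 1.70 CPM in untreated cells at 24 h. Mx2, its neighbour and annotated as a polymorphic pseudogene, had 0.722 and 0.574 CPM in Dox cells, against 3.79 and 2.49 CPM in untreated cells. Both were under 1 CPM in every library but the untreated 24 h pair, and the log2 fold changes at 24 h were -2.79 ± 0.54 (SE; edgeR adjusted p = 0.000418) for Mx1 and -2.18 ± 0.39 (SE; edgeR adjusted p = 0.000186) for Mx2.

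Of the genes for membrane and secreted proteins, 4 of 5 were tested, all 4 were called lower at 24 h and 0 at 6 or 12 h. Bst2 had 28.6 and 32.7 CPM at 6 h, 26.9 and 23.8 CPM at 12 h and 28.8 and 35.8 CPM at 24 h in Dox cells. In untreated cells Bst2 had 28.9 and 24.98 CPM at 6 h, 31.3 and 30.2 CPM at 12 h and 46.3 and 50.04 CPM at 24 h. Bst2 (tetherin), which holds budding virus at the cell surface, stayed between 23.8 and 35.8 CPM in all libraries but the untreated 24 h pair. At 24 h its log2 fold change was -0.61 ± 0.10 (SE; edgeR adjusted p = 3.35e-05). Ifitm3 had 19.7 and 18.1 CPM at 6 h, 15.8 and 17.2 CPM at 12 h and 20.7 and 22.3 CPM at 24 h in Dox cells. In untreated cells Ifitm3 had 17.1 and 19.05 CPM at 6 h, 17.5 and 19.8 CPM at 12 h and 33.6 and 37.2 CPM at 24 h. Ifitm3, which blocks the fusion of virus with endosomes, behaved in the same way, with a log2 fold change of -0.74 ± 0.10 (SE; edgeR adjusted p = 1.41e-06).

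Rtp4, a receptor chaperone, had 2.00 and 2.08 CPM in Dox cells, against 5.43 and 6.68 CPM in untreated cells at 24 h, 3.01-fold lower with a log2 fold change of -1.59 ± 0.26 (SE; edgeR adjusted p = 4.94e-05). Lgals3bp, a secreted galectin-binding glycoprotein, had 16.1 and 13.1 CPM in Dox cells, against 28.7 and 33.4 CPM in untreated cells, with a log2 fold change of -1.08 ± 0.12 (SE; edgeR adjusted p = 1.68e-07). Ifi27, a small membrane protein and too low for a test, had 9 and 1 counts in Dox cells, against 5 and 12 counts in untreated cells at 24 h. Those counts come from libraries of unlike depth, and scaled they gave 0.296 and 0.0718 CPM in Dox cells, against 0.357 and 0.364 CPM in untreated cells. At such counts a difference in Ifi27 could not be tested.

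All 4 genes of the PARP and DTX3L group were called lower at 24 h and 0 at 6 or 12 h. Parp14 had 5.47 and 5.44 CPM at 6 h, 5.84 and 7.25 CPM at 12 h and 8.14 and 8.33 CPM at 24 h in Dox cells. In untreated cells Parp14 had 3.41 and 5.34 CPM at 6 h, 8.62 and 7.24 CPM at 12 h and 27.7 and 28.3 CPM at 24 h. Parp14, an ADP-ribosyltransferase, rose in untreated cells at both steps and was called at neither step under Dox; its 24 h groups stood far apart. Its log2 fold change at 24 h was -1.77 ± 0.14 (SE; edgeR adjusted p = 9e-11). Parp9 and Dtx3l, whose products form an ADP-ribosyl and ubiquitin ligase complex, overlap each other by 681 bases on opposite strands. Parp9 had 11.5 and 9.76 CPM in Dox cells, against 23.3 and 23.2 CPM in untreated cells at 24 h, and Dtx3l had 15.9 and 17.1 CPM in Dox cells, against 30.8 and 33.9 CPM in untreated cells. Parp12, another ADP-ribosyltransferase, had 6.14 and 6.17 CPM in Dox cells, against 14.4 and 15.7 CPM in untreated cells. The log2 fold changes were -1.10 ± 0.12 (SE; edgeR adjusted p = 3.42e-08) for Parp9, -0.99 ± 0.12 (SE; edgeR adjusted p = 2.65e-07) for Dtx3l and -1.30 ± 0.15 (SE; edgeR adjusted p = 2.4e-07) for Parp12.

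The other intracellular proteins were lower at 24 h in 7 of 7 genes, and Trim30a also at 12 h. Of the 7, Sp100 passed the filter only through the untreated 24 h libraries. Trim30a had 5.34 and 6.28 CPM at 6 h, 8.91 and 7.76 CPM at 12 h and 10.7 and 11.3 CPM at 24 h in Dox cells. In untreated cells Trim30a had 5.79 and 5.71 CPM at 6 h, 11.1 and 12.3 CPM at 12 h and 27.6 and 28.1 CPM at 24 h. Trim30a, a tripartite motif protein, rose at both steps in both conditions, and its groups did not overlap at 12 or 24 h. Its log2 fold change was -0.48 ± 0.13 (SE; edgeR adjusted p = 0.0174) at 12 h and -1.34 ± 0.12 (SE; edgeR adjusted p = 6.04e-10) at 24 h. Xaf1 had 1.94 and 1.43 CPM at 6 h, 2.82 and 3.14 CPM at 12 h and 3.61 and 4.38 CPM at 24 h in Dox cells. In untreated cells Xaf1 had 1.40 and 1.85 CPM at 6 h, 4.34 and 2.57 CPM at 12 h and 13.9 and 15.6 CPM at 24 h. Xaf1, a partner of the apoptosis inhibitor XIAP, overlapped between the conditions at 12 h, and at 24 h the untreated pair stood clear of the Dox pair. Xaf1 had a log2 fold change of -1.93 ± 0.19 (SE; edgeR adjusted p = 8.98e-09) at 24 h.

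Samd9l had 4.50 and 2.57 CPM at 6 h, 4.19 and 4.17 CPM at 12 h and 6.99 and 7.90 CPM at 24 h in Dox cells. In untreated cells Samd9l had 3.44 and 2.59 CPM at 6 h, 6.12 and 6.09 CPM at 12 h and 21.5 and 20.5 CPM at 24 h. Samd9l, a growth-restraining antiviral protein known from human blood disorders, rose without Dox to a level no Dox library came near. Samd9l had a log2 fold change of -1.51 ± 0.16 (SE; edgeR adjusted p = 1.82e-08) at 24 h. Helz2, a helicase, had 19.6 and 21.5 CPM in Dox cells, against 38.1 and 41.8 CPM in untreated cells at 24 h, and Ifi35, a leucine zipper protein, had 8.01 and 9.12 CPM in Dox cells, against 11.9 and 13.3 CPM in untreated cells. Ifi44 and Sp100 had few counts, Ifi44 with 0.427 and 0.502 CPM in Dox cells, against 3.50 and 2.22 CPM in untreated cells, and the nuclear body protein Sp100 with 0.427 and 0.144 CPM in Dox cells, against 1.29 and 1.82 CPM in untreated cells. The 4 log2 fold changes were -0.97 ± 0.10, -0.59 ± 0.14, -2.59 ± 0.46 and -2.27 ± 0.52 (SE) in the order Helz2, Ifi35, Ifi44 and Sp100. The Sp100 difference follows in part from how the filter kept that gene.

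Levels can be compared between genes only per length, for which the deposited RPKM values were used. The mean over all 12 libraries was highest for Bst2 (38.9 RPKM), Ifitm3 (29.1 RPKM), Trim25 (21.9 RPKM), Adar (8.02 RPKM) and Isg15 (7.74 RPKM), and lowest for Oas3 (0.0283 RPKM). The order was not the same in all groups. Isg15 had 6.22 and 3.79 RPKM in Dox cells, against 28.3 and 30.8 RPKM in untreated cells at 24 h. Adar had 8.70 and 9.15 RPKM in Dox cells, against 10.5 and 10.2 RPKM in untreated cells, so that Isg15 was below Adar in both Dox libraries and above it in both untreated ones. Bst2 had 34.3 and 42.6 RPKM in Dox cells, against 55.7 and 60.1 RPKM in untreated cells, and Ifitm3 had 27.8 and 29.9 RPKM in Dox cells, against 45.6 and 50.3 RPKM in untreated cells, the highest 2 levels under either condition at 24 h. Trim25 had 21.1 and 19.3 RPKM in Dox cells, against 27.3 and 28.3 RPKM in untreated cells, below Ifitm3 in all 4 libraries, above Isg15 in both Dox libraries and just below it in both untreated ones. Of these 5 genes, all but Isg15 had a 24 h difference smaller than the median of the 40.

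**Figure D3:**
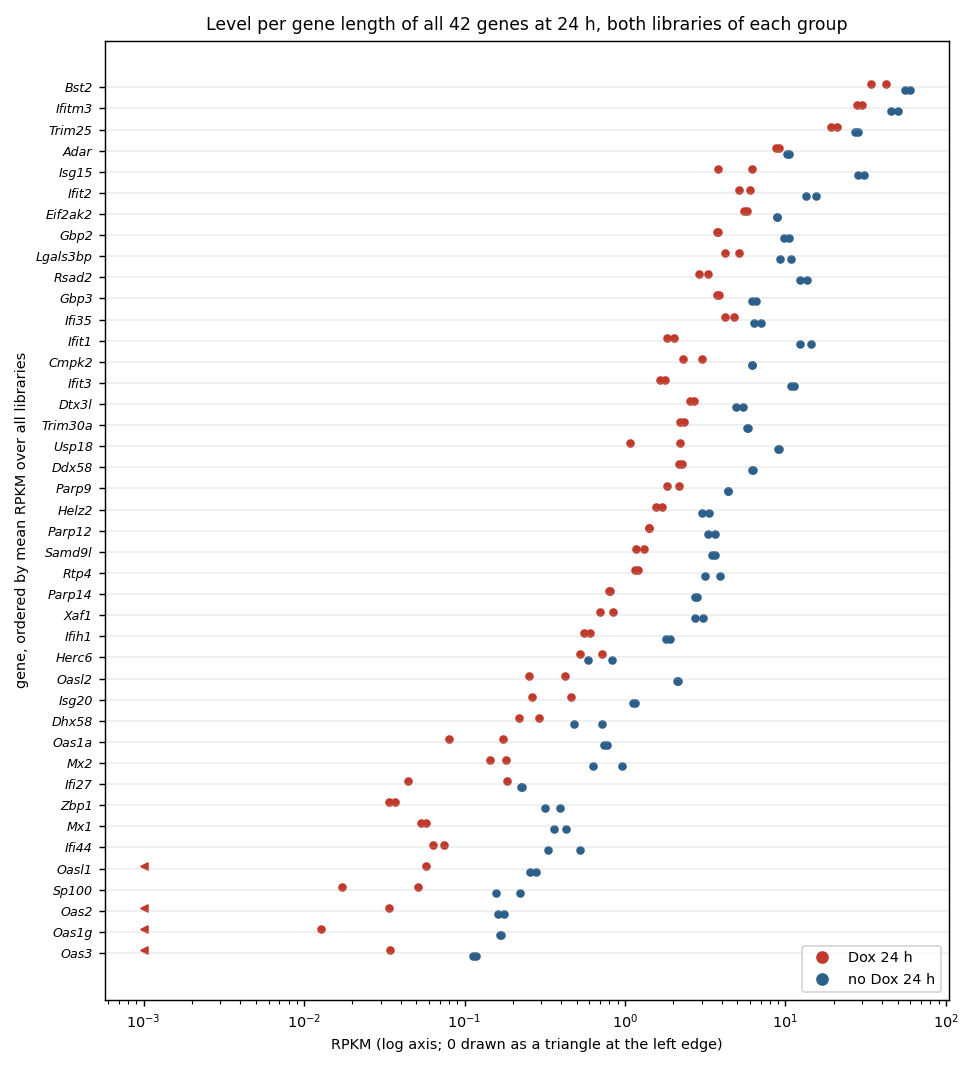
Deposited RPKM (x axis, log scale, 0 drawn as a triangle at the left edge) of all 42 genes at 24 h, with both Dox libraries (red) above both untreated libraries (blue) in each row and genes ordered by their mean over all libraries (y axis). Bst2, Ifitm3 and Trim25 lead, and the red and blue points overlap for Herc6.

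In untreated cells the same genes rose over the hours of culture. From 12 to 24 h 38 of 40 were called higher, where 12.2% of all genes were, with a median log2 fold change of 1.84 and 30 of them at least 2-fold higher. Between 6 and 12 h 19 of 40 were called higher, where 4.39% of all genes were, with a median of 0.72. Leaving out untreated 6 h replicate 1 took that count to 10. Part of the rise to 24 h of the 7 genes that passed the filter only through the untreated 24 h libraries follows from how they were kept. Without them, 32 of 33 were higher from 12 to 24 h, with a median of 1.65. From 6 to 12 h 19 of the 33 were higher, with a median of 0.61. Ifit1 rose by 2.01 ± 0.23 (SE) and then by 2.93 ± 0.15 (SE) on the log2 scale, both past the test, and Isg15 by 1.34 ± 0.24 (SE) and 2.53 ± 0.17 (SE). Herc6 and Oas3 were the 2 genes not called from 12 to 24 h. Gbp2, Gbp3, Bst2, Ifitm3, Eif2ak2 and Trim25 were not called from 6 to 12 h and were called higher from 12 to 24 h, with log2 fold changes of 0.39 ± 0.06 (SE) for Trim25 to 0.98 ± 0.12 (SE) for Gbp2 in the second interval.

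Under Dox the course was flatter. From 12 to 24 h 19 of 40 genes were called higher, where 7.84% of all genes were, with a median log2 fold change of 0.42. From 6 to 12 h 7 were called higher and 1 lower, where 8.84% of all genes were higher and 10.1% lower, with a median of 0.29. The gene called lower was Gbp3, with a log2 fold change of -0.60 ± 0.12 (SE; edgeR adjusted p = 0.000625). Single libraries weighed on both counts. The 6 to 12 h count of 8 fell to 3 without Dox 12 h replicate 1 and to 4 without Dox 6 h replicate 2. The 12 to 24 h count fell to 10 without Dox 12 h replicate 1 or without Dox 24 h replicate 1, and limma-trend called 9. Ifit1 rose under Dox between 12 and 24 h by 2.11 ± 0.21 (SE) on the log2 scale, and Usp18 by 1.44 ± 0.27 (SE). Rsad2 rose over the same hours by 0.42 ± 0.13 (SE), against 1.86 ± 0.11 (SE) in untreated cells. Each step shares libraries with the Dox comparisons above and is not independent of them.

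**Figure D4:**
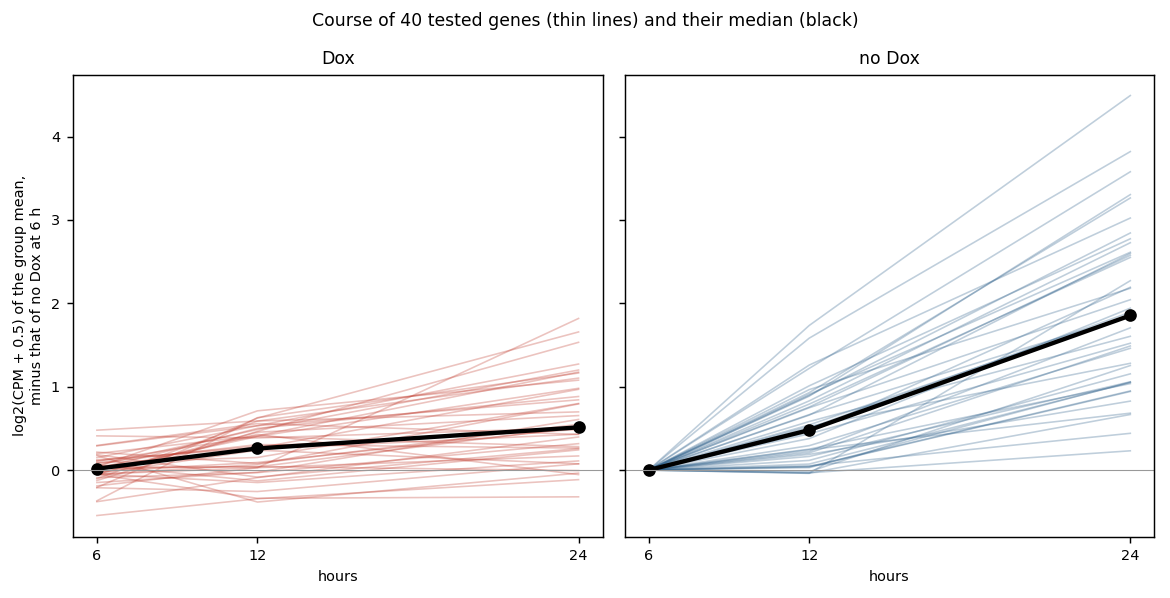
Course of the 40 tested genes (thin lines) and their median (black) at 6, 12 and 24 h (x axis), as log2(CPM + 0.5) of the group mean minus that of the untreated 6 h group (y axis), with Dox on the left and no Dox on the right. The median reached 0.51 at 24 h with Dox and 1.85 without. Oasl1, Oas1a, Oas2, Oas3, Zbp1, Mx1 and Sp100 passed the filter only through the untreated 24 h libraries.

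The Dox difference was tested for change between hours in the same fit. From 12 to 24 h it became more negative in 18 of 40 genes (1.02% of all genes), with a median change of -0.97 log2 units. From 6 to 12 h it became more negative in 1 gene, Rsad2 (0.222% of all genes), with a median change of -0.40. The Rsad2 difference changed by -0.83 ± 0.19 (SE; edgeR adjusted p = 0.0396) from 6 to 12 h and by -1.43 ± 0.17 (SE; edgeR adjusted p = 6.73e-06) from 12 to 24 h. Of the genes called between 12 and 24 h, those with the smallest p-values after Rsad2 were Ddx58 (-1.18 ± 0.16 SE, edgeR adjusted p = 5.34e-05), Parp14 (-1.49 ± 0.21 SE, edgeR adjusted p = 0.000122) and Isg15 (-1.85 ± 0.28 SE, edgeR adjusted p = 0.00028). Ifit3 (-1.69 ± 0.27 SE, edgeR adjusted p = 0.000467), Xaf1 (-1.80 ± 0.30 SE, edgeR adjusted p = 0.000951), Cmpk2 (-1.16 ± 0.20 SE, edgeR adjusted p = 0.00104) and Ifit2 (-0.84 ± 0.15 SE, edgeR adjusted p = 0.00129) came next. Ifit1, already lower at 12 h, was not called in either interval, with -1.57 ± 0.40 (SE; edgeR adjusted p = 0.0865) from 6 to 12 h and -0.82 ± 0.28 (SE; edgeR adjusted p = 0.191) from 12 to 24 h. These counts depended on the method. Limma-trend on RPKM called 1 gene, Ifit3, between 12 and 24 h, and the edgeR count was 11 without Dox 12 h replicate 1, where Ifit2 was not called. The Rsad2 call between 6 and 12 h was lost under 4 of the other fits and without any 1 of the 6 h libraries, Dox 12 h replicate 2 or untreated 12 h replicate 2.

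The rest of the pathway was read from lists of its other genes. None of 21 interferon genes could be tested, and 19 of them were at 0 counts in every library. Ifnb1, the type I interferon made by most cell types, had 1 and 0 counts in Dox cells, against 3 and 2 counts in untreated cells at 24 h. It had 1 count in 1 untreated 12 h library and 0 counts in the other libraries, and Ifne had 2 counts in 1 Dox 24 h library. A 0 in this table need not mean that a gene is silent, since mt-Co2, mt-Co3, mt-Atp6, mt-Atp8, mt-Nd3 and mt-Nd4l, which every cell uses, were also at 0 in all 12 libraries.

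Of 19 genes for receptors, Janus kinases, STAT and IRF factors, 8 were called lower at 24 h and 0 higher (6.52% and 4.50% of all genes). At 12 h 1, Stat3, was called higher (0.17 ± 0.05 SE, edgeR adjusted p = 0.0374) and 0 lower. Over all genes 3.26% were higher and 3.51% lower at 12 h, so this 1 gene is near the share over all genes. Irf7, itself induced by interferon, had 1.25 and 0.574 CPM in Dox cells, against 5.15 and 6.98 CPM in untreated cells at 24 h, a log2 fold change of -2.62 ± 0.35 (SE; edgeR adjusted p = 2e-06). Irf9, the DNA-binding subunit of ISGF3, had 11.9 and 13.9 CPM in Dox cells, against 25.2 and 23.2 CPM in untreated cells, with -0.92 ± 0.12 (SE; edgeR adjusted p = 1.93e-06), and Stat2 had 31.3 and 34.5 CPM in Dox cells, against 48.4 and 50.1 CPM in untreated cells, with -0.59 ± 0.08 (SE; edgeR adjusted p = 1.74e-06). The receptor gene Ifnar1 had 197 and 196 CPM in Dox cells, against 198 and 204 CPM in untreated cells, and was not called (-0.03 ± 0.05 SE, edgeR adjusted p = 0.792), nor was Ifnar2 (-0.17 ± 0.10 SE, edgeR adjusted p = 0.367). Of the genes for other receptor chains, the interferon-gamma receptor gene Ifngr1 had 35.99 and 35.6 CPM in Dox cells, against 43.7 and 45.3 CPM in untreated cells, and was called lower (-0.32 ± 0.08 SE, edgeR adjusted p = 0.00625). Ifngr2 (-0.19 ± 0.07 SE, edgeR adjusted p = 0.0776) and Il10rb (-0.27 ± 0.10 SE, edgeR adjusted p = 0.0957) lay below the untreated libraries in both Dox libraries without passing the test.

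Among 13 genes of upstream sensing 3 were called lower and 1 higher at 24 h, where 6.52% of all genes were lower and 4.50% higher, so the 1 higher gene is near the share over all genes. The adaptor Myd88 had a log2 fold change of -0.45 ± 0.10 (SE; edgeR adjusted p = 0.00157), and the endosomal receptors Tlr7 and Tlr3 had -1.31 ± 0.29 (SE; edgeR adjusted p = 0.00227) and -0.46 ± 0.13 (SE; edgeR adjusted p = 0.016). Traf6, a ubiquitin ligase downstream of them, was higher in Dox cells, at 0.23 ± 0.07 (SE; edgeR adjusted p = 0.0291). Of 7 negative regulators 2 were called lower, the phosphatase gene Ptpn6 (-0.82 ± 0.12 SE, edgeR adjusted p = 9.7e-06) and Socs3 (-0.30 ± 0.09 SE, edgeR adjusted p = 0.0217). A list of other interferon-induced genes that are no members had 28 of 41 tested genes lower and 0 higher at 24 h, with a median log2 fold change of -0.82. At 12 h 7 of the 41 were lower (3.51% of all genes), and from 12 to 24 h 31 of them were higher in untreated cells (12.2% of all genes). Slfn5 had 17.7 and 15.8 CPM in Dox cells, against 53.8 and 58.4 CPM in untreated cells at 24 h, with -1.74 ± 0.10 (SE; edgeR adjusted p = 2.57e-13). The immunity-related GTPases Irgm1 and Irgm2 had -1.56 ± 0.09 (SE; edgeR adjusted p = 2.95e-13) and -1.87 ± 0.13 (SE; edgeR adjusted p = 9.18e-12), and Gbp5 had -1.58 ± 0.10 (SE; edgeR adjusted p = 1.97e-12).

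At 24 h most markers of blood cells were lower in Dox cells, as were most of these genes. The 42 genes summed to 509.6 and 510.0 CPM in Dox cells, against 1002 and 1057 CPM in untreated cells at 24 h. Beside the 24 h counts of each list below, 6.52% of all genes tested were called lower and 4.50% higher. The myeloid list summed to 53.8 and 50.5 CPM in Dox cells, against 138 and 143 CPM in untreated cells, and 10 of its 11 tested genes were called lower and 0 higher. Elane, the neutrophil elastase gene of that list, had 1 count in 1 Dox 24 h library and 0 counts in the others. The pan-haematopoietic list summed to 159 and 148 CPM in Dox cells, against 276 and 283 CPM in untreated cells, with 8 of 10 lower, and the megakaryocyte list to 417 and 396 CPM in Dox cells, against 871 and 898 CPM in untreated cells, with 8 of 8 lower. Both Dox libraries lay below both untreated ones for each of these lists. The erythroid list summed to 1552 and 1274 CPM in Dox cells, against 2771 and 2475 CPM in untreated cells, with 10 of 11 lower and 1 higher. The endothelial list went the other way, with 2638 and 2741 CPM in Dox cells, against 2417 and 2397 CPM in untreated cells, 5 of 10 genes higher and 1 lower. Lymphoid and plasmacytoid markers were near 0, at no more than 0.404 CPM summed in any library, with Cd3e at 0 in all. Of the mural and mesenchymal list 3 of 8 were lower and 0 higher, and of 7 tested mitochondrially encoded genes 3 were higher and 0 lower. Of 4 tested pluripotency genes 1 was lower and 0 were higher.

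The courses were not alike in detail. At 6 h the median log2 fold change was -0.36 for the megakaryocyte list, -0.50 for the erythroid list and -0.19 for the pan-haematopoietic list. For the 40 tested members it was 0.01. Under Dox from 12 to 24 h the median was -0.41 for the erythroid list and 0.42 for the members. Over those hours it was 0.05 for the pan-haematopoietic, 0.31 for the myeloid and 0.40 for the megakaryocyte list. At 12 h the members summed to 433 and 411 CPM in Dox cells, against 484 and 482 CPM in untreated cells, and the myeloid list to 47.8 and 42.5 CPM in Dox cells, against 69.4 and 59.8 CPM in untreated cells, with the Dox libraries below the untreated ones in both. At 6 h the members summed to 411 and 389.9 CPM in Dox cells, against 378 and 398 CPM in untreated cells, which overlap, and the myeloid list to 35.5 and 31.2 CPM in Dox cells, against 41.8 and 38.1 CPM in untreated cells, which do not. That 6 h myeloid sum was not a shift of the whole list, whose 11 tested genes had a median log2 fold change of -0.02, with 3 called lower and 1 higher (0.717% and 0.821% of all genes). Spi1 (-1.19 ± 0.20, SE), Cx3cr1 (-1.05 ± 0.27, SE) and Mpo (-0.66 ± 0.13, SE) were lower at 6 h and Lyz2 (0.92 ± 0.16, SE) was higher, and the same 4 genes were called in the same directions at 12 h. What part the share of blood cells has in the levels of the interferon-induced genes was not tested.

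**Figure D5:**
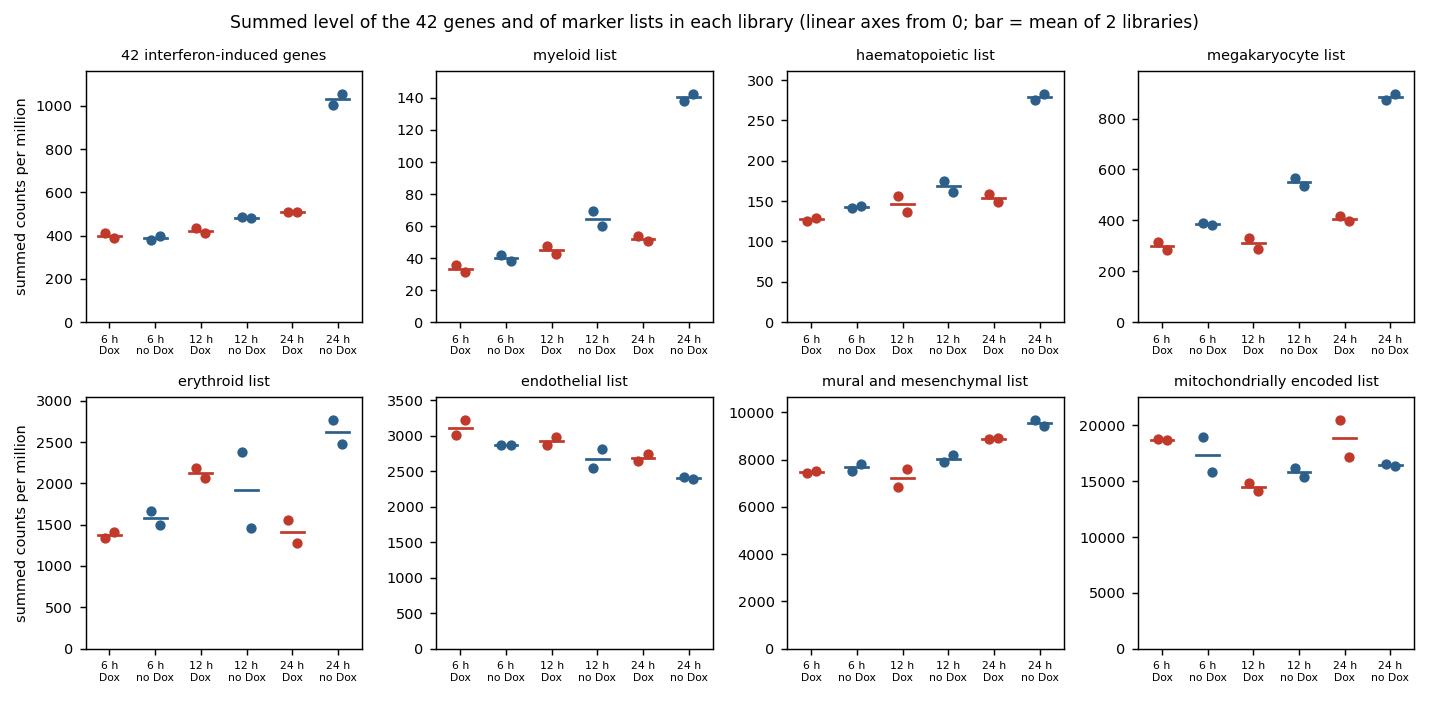
Summed CPM (y axis, linear from 0) of the 42 interferon-induced genes and of 7 marker lists in each library (points), by hour with Dox (red) left of no Dox (blue) and a bar at the mean of 2 libraries. The interferon-induced, myeloid, haematopoietic and megakaryocyte sums stand highest in the 2 untreated 24 h libraries, and the endothelial sum stands lowest there.

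Several of these genes lie side by side in the genome. On GRCm38 Ifit2, Ifit3 and Ifit1 lie on the forward strand within chr19:34550694-34650009. Oasl2 and Oasl1 lie 11006 bases apart on chromosome 5, and Oas2, Oas3, Oas1g and Oas1a lie on the reverse strand within chr5:120730333-120907521. Rsad2 and Cmpk2 share a stretch of chromosome 12, Mx1 and Mx2 of chromosome 16, and Gbp3 and Gbp2 of chromosome 3. Parp14, Dtx3l and Parp9 lie within chr16:35832874-35972605. Gbp3 overlaps the interferon-induced gene Gbp5 on the same strand, and Parp9 and Dtx3l overlap on opposite strands. Values of these overlapping genes, of Oas1a and Oas1g, of Ifit3 and of Trim30a, which have near-identical relatives, are uncertain where reads could be split between copies.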

How the data were processed

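Per the labels' protocols, 200 ng of total RNA per sample went into a strand-specific kit with 14 PCR cycles, and single reads of 75 bases were taken. The submitters' processing notes name the build GRCm38, Bowtie2 2.21, edgeR 3.8.5, R 3.1.0, SAMtools 0.1.19 and bcl2fastq 2.16.0.10. The tool that counted reads, its strand setting and its annotation are not given in these sources. The authors deposited a table of raw counts per gene and a table of RPKM for the same 12 libraries.

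Counts were analysed as deposited with R 4.3.3 and edgeR 4.0.16. Genes were kept by filterByExpr with a minimum count of 10 (about 0.466 CPM in the 2 libraries of a group), which left 15347 of 41128 genes. Libraries were scaled by TMM and fitted with 1 mean for each of the 6 groups of 2 libraries (6 residual degrees of freedom, biological coefficient of variation 4.71%). Contrasts were tested with the quasi-likelihood test and adjusted by Benjamini-Hochberg over all genes tested. SE is the size of the log2 fold change over the root of its F, and CPM are counts over the TMM-scaled library size. Depths ran from 13485804 to 35250074 counts, so that low genes had few counts in the shallower libraries. RPKM values as deposited were used for levels per length and for limma-trend (limma 3.58.1) on log2(RPKM + 0.1), which understates changes of low genes. The RPKM scale followed the scaled library sizes within 1.13%. The edgeR fit was also run on counts simulated from the means and dispersions of these data, which cannot check the assumptions of the model. Replicates differed by more than sampling noise (chi-square per degree of freedom 2.63 to 4.61), which does not show that they came from separate cultures. Each library was counted as 1 sample.

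Alternatives were upper-quartile and RLE scaling, testing without a filter, a filter of 1 CPM in 4 libraries, DESeq2 1.42.0, limma-trend, only the groups compared, a replicate block, each library left out, and, added after seeing the data, a depth class block. Promoter windows came from RefSeq and were searched on both strands.

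Genes named with full values were the 10 largest called changes at 24 h whose mean log2 CPM was 1 or more, those called at 12 h, those called against the main direction, those tested but not called at 24 h, the 5 highest in RPKM, and up to 8 called in a change of the Dox difference. From the pathway lists up to 4 genes per list were named, with Stat2, Irf7, Irf9 and Ifnb1 always, and 1 gene of these lists is not reported here. The 5 receptor genes, Stat3 and the myeloid genes were added after their values were seen. Other members are given by their 24 h values. The members, the lists and the rule were chosen with earlier results of these data known.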

Additional observations from a re-analysis of the deposited data

Results flagged for a closer look

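For 8 genes the difference between Dox and untreated cells was itself different between hours, by the interaction contrast of the edgeR fit. From 6 to 12 h this held for Rsad2, with a change of -0.83 log2 units. From 12 to 24 h it held for Rsad2 (-1.43), Ddx58 (-1.18), Parp14 (-1.49), Isg15 (-1.85), Ifit3 (-1.69), Xaf1 (-1.80), Cmpk2 (-1.16) and Ifit2 (-0.84), the 8 with the smallest p-values of 18 called. Xaf1 shows the step most plainly, with log2 fold changes of 0.05 ± 0.30 at 6 h, -0.13 ± 0.23 at 12 h and -1.93 ± 0.19 at 24 h (SE). Cmpk2 had 0.49 ± 0.16 at 6 h, -0.08 ± 0.14 at 12 h and -1.23 ± 0.13 at 24 h (SE). The untreated 24 h libraries enter each of the contrasts from 12 to 24 h, and the cause of these changes was not tested.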

How the results depend on the processing

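No called result changed direction under any alternative, and the 6 h median, where 0 genes were called, took either sign. All 3 scalings, the depth class block and the replicate block kept the counts of the Dox comparisons within 1.5 times, apart from the change of the Dox difference from 6 to 12 h. That count was 1 gene in the reported fit, 0 under upper-quartile scaling, the filter of 1 CPM in 4 libraries, limma-trend and a fit of only the groups compared, and 2 with no filter and with DESeq2. Limma-trend called 3 genes at 12 h, 1 in the change from 12 to 24 h, 5 under Dox from 6 to 12 h and 9 under Dox from 12 to 24 h. Its median was -1.38 at 24 h, 0.46 in untreated cells from 6 to 12 h and 1.30 from 12 to 24 h. The stricter filter, which leaves fewer low genes, gave medians of -1.32 at 24 h and 1.34 in untreated cells from 12 to 24 h.

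With 1 library left out, where the lone library is taken to vary like the other groups, the count was 0 at 6 h (median -0.0603 to 0.0436), 3 to 7 at 12 h (median -0.31 to -0.25) and 31 to 35 at 24 h (median -1.59 to -1.48). The change of the Dox difference was called in 0 to 1 genes from 6 to 12 h (median -0.48 to -0.22) and in 11 to 20 from 12 to 24 h. Untreated cells gave 10 to 17 genes from 6 to 12 h and 34 to 38 from 12 to 24 h, and Dox cells 3 to 9 and 10 to 14.

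Of the 37 genes called at 24 h, 30 were called under every alternative, and Isg20, Oasl1, Oas1a, Oas2, Dhx58, Ifi35 and Sp100 were not. Of the 8 at 12 h, 2 were. Replicate numbers did not pair the libraries, since deviations of same-numbered libraries correlated between -0.04 and 0.08 across the groups. With the replicate block 8 genes were called at 12 h and 37 at 24 h, and the median at 24 h was -1.55. With 2 libraries a group, genes under about 1 CPM, most of the OAS family among them, are limited by depth.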

Other observations

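Some interferon-related genes outside the 42 did not pass the test at 24 h, and those named here were chosen after their values were seen. Ifitm2, a relative of Ifitm3, had 88.5 and 80.6 CPM in Dox cells, against 84.5 and 80.4 CPM in untreated cells at 24 h, which is a log2 fold change of 0.05 ± 0.07 (SE; edgeR adjusted p = 0.774). Aim2, a sensor of cytosolic DNA, had 8.14 and 9.04 CPM in Dox cells, against 9.37 and 9.07 CPM in untreated cells, with -0.11 ± 0.14 (SE; edgeR adjusted p = 0.727). Mavs, the adaptor of RIG-I and MDA5, had 27.6 and 30.5 CPM in Dox cells, against 27.1 and 27.1 CPM in untreated cells, with 0.09 ± 0.09 (SE; edgeR adjusted p = 0.641). Whether their changes differ from those of the interferon-induced genes was not tested.

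The 42 genes summed to 509.6 and 510.0 CPM in Dox cells at 24 h. This was slightly above untreated cells at 12 h, with 484 and 482 CPM. Single genes were in either order. Adar was higher in both of these Dox libraries (64.8 and 68.4 CPM, against 55.98 and 56.5 CPM). Rsad2 was lower in both (13.7 and 15.6 CPM, against 16.9 and 17.1 CPM), as was Gbp2. Trim25, with the largest CPM of the 42, overlapped. The median of the 40 tested genes was near level, at 0.51 in Dox cells at 24 h and 0.48 in untreated cells at 12 h. These medians are of log2(CPM + 0.5) minus that of the untreated 6 h group. The myeloid sum was in the opposite order to the sum of the 42 genes. It was 53.8 and 50.5 CPM in Dox cells at 24 h, below the 69.4 and 59.8 CPM of untreated cells at 12 h. Mpo and Spi1 carried that order, with 9.03 and 9.12 CPM and 6.83 and 4.09 CPM in Dox cells at 24 h, against 23.6 and 20.4 CPM and 14.5 and 10.3 CPM in untreated cells at 12 h. Fcgr3, Tyrobp and Csf3r, at lower levels, were also lower in both of these Dox libraries, and Itgam, Emr1 and Fcer1g overlapped. Lyz2, Cx3cr1 and Csf1r were in the other order, Lyz2 with 12.9 and 13.4 CPM in Dox cells at 24 h, against 6.20 and 6.48 CPM in untreated cells at 12 h.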
